A study of Mus musculus with 3 samples.

Results

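Oligodendrocyte precursor nuclei were described in the single-nucleus RNA data of 3 libraries of mouse neurosphere cultures, and made up 2221 of 12549 nuclei (17.7%). A nucleus was counted among them when Pdgfra, Cspg4 and Megf11 together reached at least 4 UMIs (unique molecular identifiers, which count captured RNA molecules). It also had to hold no UMI of the myelin genes Mog, Mag, Mobp and Ermn, fewer than 8 of the committed precursor genes Bcas1, Gpr17 and Enpp6, fewer than 3 of the cell cycle genes Top2a, Mki67, Kif11 and Knl1, and fewer than 4 of Kcnj6, Nell2, Fstl5 and Disp3. The members were thus chosen by the measured UMIs of these genes, whose levels in them are given only as a description. Of the 18 genes named in the rule, 3 set the lower limit, and the rest kept out neighbouring types.

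The cultures were grown from the subventricular zone of newborn mice, differentiated, and collected after 15 days in vitro (DIV). Per the study's methods, the CBP-ablated library came from mice with floxed Crebbp alleles and the p300-ablated library from mice with floxed Ep300 alleles, all on a C57BL/6 background, and the cells received a lentivirus encoding Cre recombinase fused to mCherry. Control cultures received a lentivirus encoding a red fluorescent protein, and which of the floxed lines they came from was not given in the sources used here. GEO's labels give the genotypes as control, CBPf/f and p300f/f and name tamoxifen as the treatment of all 3 libraries, which the study's methods do not describe. Each library was a pool of about 15 cultures whose nuclei were sorted on red fluorescence, with 16000 nuclei loaded. The control library held 4884 nuclei and 16312170 UMIs, the CBP-ablated library 3017 nuclei and 12748336 UMIs, and the p300-ablated library 4648 nuclei and 18876682 UMIs.

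With 1 library per condition there was no replicate and no test of a condition, and nuclei of a library are not replicates. A condition cannot be told apart from its library. Every interval below is a 95% interval that covers counting error only, exact Poisson for a level, exact binomial for a share, conditional binomial for a ratio of levels and Newcombe for a difference of shares. A level is the UMIs of a gene in all precursor nuclei of a library, per 1000000 of their UMIs (counts per 1000000, CPM), and a log2 ratio compares 2 such levels.

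Oligodendrocyte precursors are the dividing glial cells of the brain that give rise to myelinating oligodendrocytes. Their survival and division depend on platelet-derived growth factor acting on the receptor Pdgfra, and they carry the proteoglycan NG2, which Cspg4 encodes. They receive synapses from neurons, express many receptors and channels for this, and switch these genes off as they commit to myelination through a stage marked by Bcas1, Gpr17 and Enpp6. CBP (Crebbp) and p300 (Ep300) are closely related lysine acetyltransferases that act as coactivators at enhancers and promoters.

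The nuclei carried the genes known for this cell type. Pdgfra stood at 838 CPM in control, 972 CPM in CBP-ablated and 978 CPM in p300-ablated precursor nuclei, against 128, 127 and 272 CPM in all other nuclei. Cspg4 stood at 226, 172 and 263 CPM in the same order, and Megf11, an engulfment receptor family gene, at 972, 1361 and 1007 CPM. Members with at least 1 UMI of each of these 3 genes were 38.6% of the control, 33.6% of the CBP-ablated and 50.2% of the p300-ablated precursor nuclei, and the rest entered the class on 1 or 2 of them.

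Genes that the rule did not use gave the same picture. Lhfpl3, the most abundant marker of the type, was found in 98.9%, 100% and 99.8% of the members, at 13781, 14032 and 15016 CPM against 4496, 4426 and 7090 CPM in the other nuclei. Calcrl, the receptor for calcitonin gene-related peptide and adrenomedullin, stood at 226, 176 and 195 CPM, and the ubiquitin ligase Lnx1 at 230, 213 and 251 CPM. The protocadherin Pcdh15 stood at 3630, 3708 and 3596 CPM, and the myelin transcription factor Myt1 at 339, 331 and 371 CPM. Of 25 precursor markers outside the rule, 18 in control, 17 in CBP-ablated and 14 in p300-ablated precursor nuclei lay at least 2 fold above the other nuclei of their library. The lower count in the p300-ablated library came with higher levels in its other nuclei, where Lhfpl3 and Pdgfra were both higher than in the control library.

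The transcription factors Sox10, Olig2 and Olig1, which define the lineage, lay within 2 fold in the 3 libraries. Sox10, which is needed for oligodendrocyte differentiation, stood at 301 CPM (280 to 324) in control, 340 CPM (306 to 376) in CBP-ablated and 366 CPM (348 to 383) in p300-ablated precursor nuclei. Olig2, which specifies the lineage, stood at 103, 121 and 104 CPM, and its relative Olig1 at 54.4, 50.6 and 38.2 CPM. The intervals of Sox10 overlapped between control and CBP-ablated precursors but not between control and p300-ablated precursors, and those of Olig2 overlapped in all 3 libraries. Those of Olig1 also did not overlap between control and p300-ablated precursors, where Olig1 was lower and Sox10 higher in the p300-ablated library.

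**Figure D1:**
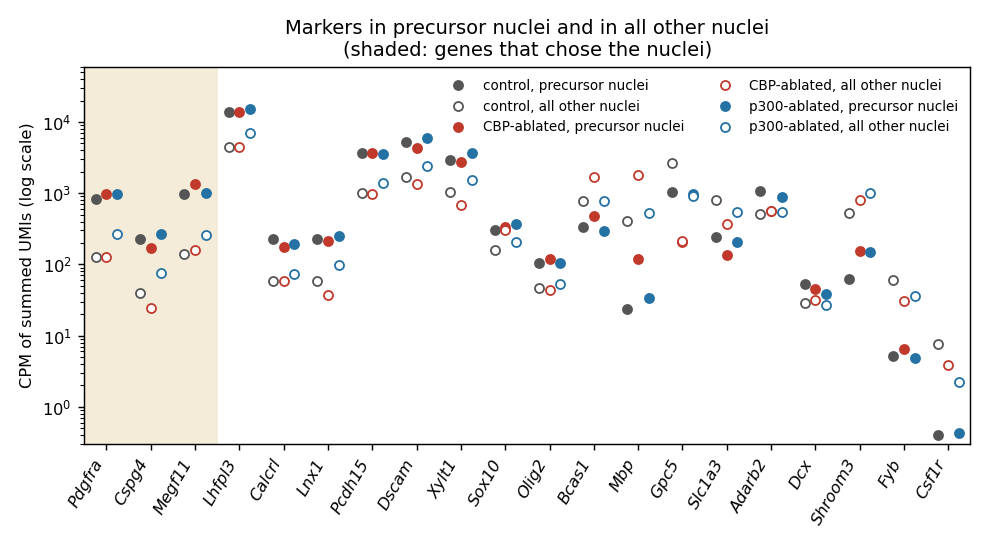
Levels in CPM (log axis) of marker genes in precursor nuclei (filled points) and in all other nuclei (open points) of the control, CBP-ablated and p300-ablated libraries. Pdgfra and Lhfpl3 lie above the other nuclei in each library, and Csf1r, a microglia gene, had 1, 0 and 2 UMIs in the precursor nuclei.

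Markers of other cell types were not all absent. Microglia and macrophage markers summed to 32.2 CPM in control, 35.0 CPM in CBP-ablated and 28.6 CPM in p300-ablated precursor nuclei, with P2ry12 the most abundant of the 12, and Aif1, Trem2 and Itgam at 0 in control and CBP-ablated members. Fibroblast and pericyte markers summed to 8.87, 7.37 and 6.15 CPM. Astrocyte markers, led by the heparan sulfate proteoglycan Gpc5, summed to 2236, 824 and 1815 CPM in the members and to 7229, 2064 and 3352 CPM in the other nuclei. Radial glia and stem cell markers, led by the glutamate transporter Slc1a3, summed to 539, 551 and 617 CPM, and neuronal markers, led by Adarb2, to 1960, 1505 and 1756 CPM. In the other nuclei the neuronal markers summed to 1575, 1667 and 1586 CPM.

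The floxed genes were measured in every library. Crebbp (chromosome 16, 4081328 to 4213997, GRCm38) stood at 309 CPM in control, 355 CPM in CBP-ablated and 347 CPM in p300-ablated precursor nuclei. Ep300 (chromosome 15, 81585351 to 81652077) stood at 98.8, 128 and 120 CPM. Neither gene was lower in the library in which it was floxed. Cre removes only the floxed exon, and a count over the whole gene, introns included, does not measure its loss. The study describes recombined Ep300 as leaving no mature mRNA or protein, but such a count does not separate mature from unspliced RNA. These values therefore do not check the labels, and why Ep300 was not lower was not tested.

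The share of precursor nuclei differed between the libraries. They were 726 of 4884 control nuclei (14.9%, 13.9 to 15.9), 307 of 3017 CBP-ablated nuclei (10.2%, 9.12 to 11.3) and 1188 of 4648 p300-ablated nuclei (25.6%, 24.3 to 26.8). The CBP-ablated share was below the control share, with a difference, CBP-ablated minus control, of -4.69 percentage points (-6.14 to -3.2), and the p300-ablated share was higher by 10.7 points (9.09 to 12.3). With no replicate library, the spread of such a share between cultures of the same kind is not known.

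The 2 differences did not hold equally under other limits. With the lower limit alone and no limit on genes of other types, the control share was 22.4%, the CBP-ablated share 21.4% and the p300-ablated share 42.7%, which differed from control by -1.01 points (-2.87 to 0.88) and 20.3 points (18.4 to 22.1). At least 6 UMIs of the 3 genes gave 9.07%, 7.92% and 19.4%. Thinned to 2000 UMIs per nucleus, with lower limits, the shares were 15.1%, 10.7% and 25.7%. The CBP-ablated share was therefore lower than that of the control under the limits as set, and its interval reached 0 without the limits on other types or at 6 UMIs. The p300-ablated share was the highest of the 3 under each of these limits.

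Much of the CBP-ablated difference lay in the limit on myelin genes. It alone left out 34 control, 110 CBP-ablated and 68 p300-ablated nuclei, and 31, 90 and 59 of these held a single UMI of Mog, Mag, Mobp and Ermn together. Like the members, these nuclei had to pass the lower limit. Of genes outside the rule, Lhfpl3 in them stood at 14200, 12800 and 14160 CPM and Ptprz1, a receptor phosphatase of precursors, at 3767, 4091 and 3758 CPM, within 2 fold of the members. Mbp stood at 0, 341 and 249.5 CPM and Slc24a2 at 9.51, 312 and 476 CPM, above the members in both ablated libraries and below them in control. Microglia, which do not make myelin, held a UMI of these 4 genes in 10 of 106 control (9.43%, 4.62 to 16.7), 7 of 36 CBP-ablated (19.4%, 8.19 to 36.0) and 2 of 33 p300-ablated nuclei (6.06%, 0.743 to 20.2). Median depth was 1533, 1555 and 2383 UMIs in the microglia and 3287.5, 3360 and 3885.5 UMIs in the precursors. Mog itself stood at 228 CPM in the other nuclei of the CBP-ablated library, against 65.1 and 72.3 CPM in those of the control and p300-ablated libraries. With fewer than 3 UMIs allowed in place of 0, precursors made up 15.5%, 13.5% and 27.0% of the nuclei, and the CBP-ablated difference was -2.02 points (-3.59 to -0.41).

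**Figure D2:**
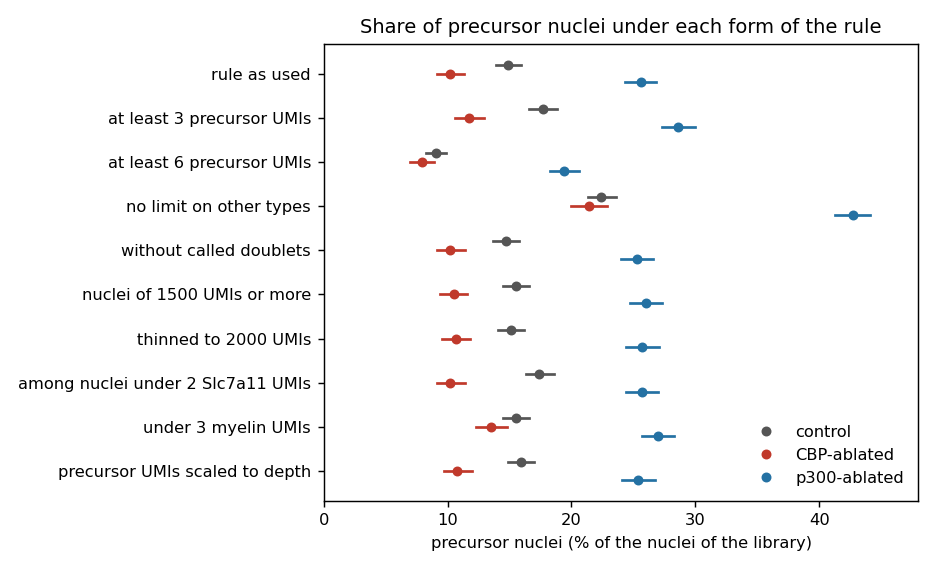
Share of precursor nuclei among all nuclei of the control, CBP-ablated and p300-ablated libraries (percent, axis from 0) under the limits as set and under the other limits, with 95% binomial intervals. The p300-ablated share is the highest under each of the limits drawn, while the CBP-ablated share approaches that of the control without the limits on other types.

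At the lower limit the members graded into the nuclei beyond it. Nuclei just inside, with a sum of 4 UMIs, held Pdgfra at 539, 608 and 564 CPM, and those just outside, with a sum of 3, held it at 391, 441 and 422 CPM. Lhfpl3, which the rule did not use, stood at 12820, 12980 and 14460 CPM inside and 12170, 12420 and 12940 CPM outside. There were 156, 34 and 155 nuclei just inside and 139, 46 and 143 just outside in the control, CBP-ablated and p300-ablated libraries.

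Between libraries, most genes of the precursors lay within 2 fold. Ranking took the genes that reached 100 UMIs over both libraries of a comparison. A gene was counted as higher or lower when its level differed at least 2 fold. A gene near the limit could be ranked only through the library where it was high, so these counts partly rest on the limit. Against control, 39 of 4904 genes (0.795%) were higher and 92 (1.88%) lower in CBP-ablated precursors, and 33 of 6885 genes (0.479%) were higher and 26 (0.378%) lower in p300-ablated precursors. The median log2 ratio of all ranked genes was 0.122 for CBP-ablated and 0.005 for p300-ablated precursors. Centred on that median, 26 genes were higher and 134 lower in CBP-ablated precursors. Requiring 20 or more UMIs in each of the libraries instead turned both balances, to 115 higher and 72 lower in CBP-ablated and 30 higher and 85 lower in p300-ablated precursors. Both comparisons share the control library, so a level peculiar to it enters both.

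Of 20 ranked precursor markers in the CBP-ablated comparison and 24 in the p300-ablated comparison, 0 passed 2 fold in either direction, which with the small shares of all genes past 2 fold (0.795% and 1.88%, 0.479% and 0.378%) does not set the list apart, with median log2 ratios of -0.102 and 0.125. The closest was S100a3, a calcium-binding protein, with 86 UMIs in control, 19 in CBP-ablated and 169 in p300-ablated precursors, or 34.7, 17.5 and 35.8 CPM (log2 ratios -0.99 and 0.05). Vcan, the proteoglycan versican, stood at 1080, 712 and 1268 CPM. Kcnip3, a potassium channel regulator that was not on the list but was among the genes of highest fold over other nuclei, stood at 574, 290 and 650 CPM (log2 ratios -0.99 and 0.18).

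**Figure D3:**
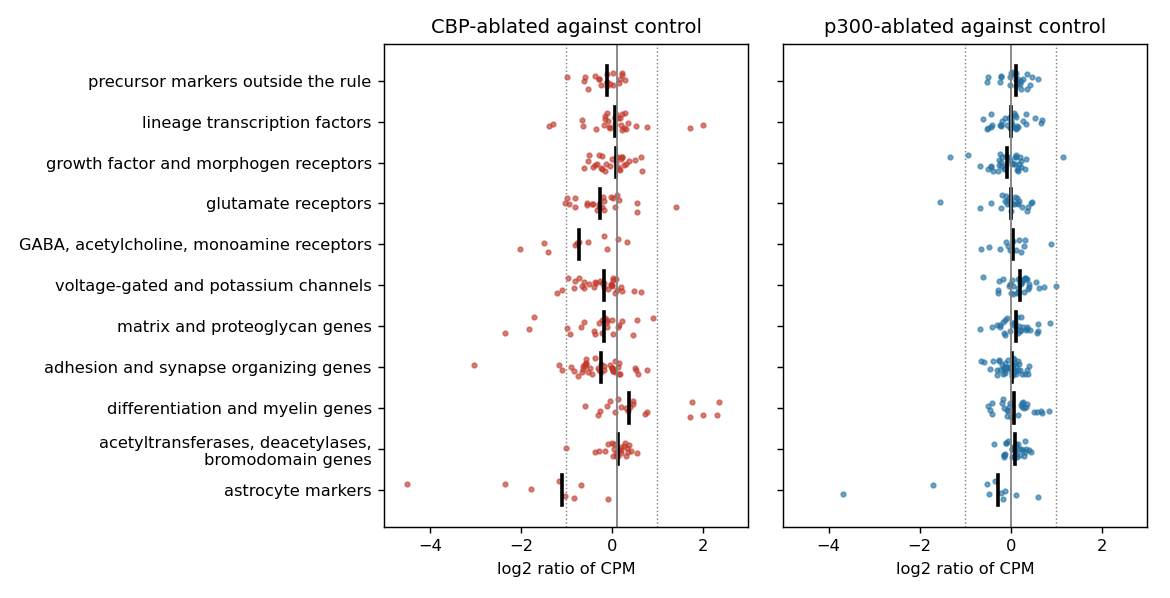
Log2 ratios against control of the ranked members of each gene list in CBP-ablated and p300-ablated precursor nuclei (points are genes, black bars list medians, the grey line the median of all ranked genes, dotted lines 2 fold). The receptors for GABA, acetylcholine and monoamines and the astrocyte markers lie lowest in the CBP-ablated comparison, with medians of -0.711 and -1.10.

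Some receptors by which neurons signal to precursors were lower in the CBP-ablated library. Of 11 ranked receptors for GABA, acetylcholine and monoamines, 3 fell at least 2 fold and 0 rose, with a median log2 ratio of -0.711, or -0.833 centred on the median gene. Over all ranked genes 1.88% fell and 0.795% rose, with a median of 0.122. In p300-ablated precursors 0 of 14 passed 2 fold, where 0.479% of all ranked genes were higher and 0.378% lower, and the median was 0.0418. Gabrg3, a GABA-A receptor subunit on chromosome 7 (56716465 to 57387188, minus strand), stood at 96.7 CPM (84.9 to 110) in control, 23.9 CPM (15.6 to 35.1) in CBP-ablated and 95.6 CPM (87.0 to 105) in p300-ablated precursors. The CBP-ablated library was low and the other 2 overlapped, with log2 ratios of -2.01 (-2.66 to -1.43) and -0.02. Chrm3, a muscarinic acetylcholine receptor, stood at 51.2, 19.3 and 47.7 CPM, and the adrenergic receptor Adra1a at 46.8, 16.6 and 45.2 CPM. For both, the CBP-ablated level lay below the other 2, and the log2 ratio of Chrm3 to control was -1.40 (-2.15 to -0.73). That of Adra1a was -0.877 without nuclei holding a UMI of Mbp, St18 or Slc24a2. Microglia held Adra1a at 35.8, 0 and 90.5 CPM, above the precursors in the p300-ablated library. Gabrb1, a GABA-A receptor subunit and the most abundant receptor of the list, stood at 254, 227 and 295 CPM, within 2 fold. Members with a UMI of the neuronal Dlx or Gad genes were 12.7%, 5.86% and 12.9%. Those with no UMI of Bcas1, Gpr17 and Enpp6 were 47.4%, 28.0% and 46.6%, and those with 4 to 7 were 11.8%, 20.5% and 12.3%. The part of these shifts in the lower receptor levels was not tested.

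Glutamate receptors were mostly within 2 fold. Of 24 ranked in CBP-ablated precursors, Grm7 rose and Dlg2, a scaffold of glutamate synapses, fell, and the median log2 ratio was -0.251. Over all ranked genes 0.795% rose and 1.88% fell, with a median of 0.122, so these single genes do not set the list apart. Dlg2 stood at 500 CPM in control, 247 CPM in CBP-ablated and 679 CPM in p300-ablated precursors (log2 ratios -1.02 and 0.44), and its CBP-ablated ratio was -0.776 in thinned nuclei. Grm7, a metabotropic receptor, stood at 64.9, 173 and 73.6 CPM, but in CBP-ablated microglia it stood at 210 CPM, so its level in the CBP-ablated precursors was not above that of a cell type outside the lineage. With 10% free RNA subtracted its log2 ratio was 0.379 in place of 1.42. Of 25 ranked in p300-ablated precursors, the NMDA receptor subunit Grin2b fell, at 66.1, 54.3 and 22.7 CPM with a log2 ratio of -1.54 (-1.91 to -1.18), and the median was 0.008.

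Ion channels held a gene that moved in opposite directions. Cacna1e, a voltage-gated calcium channel subunit, stood at 48.8 CPM (40.5 to 58.3) in control, 21.2 CPM (13.4 to 31.8) in CBP-ablated and 97.9 CPM (89.2 to 107) in p300-ablated precursors. The 3 intervals did not overlap, and the log2 ratios were -1.20 (-1.91 to -0.55) and 1.01 (0.71 to 1.31). The related auxiliary subunit Cacna2d3 stood at 235, 111 and 362 CPM, with log2 ratios of -1.09 and 0.62. Where weakest, the ratios of Cacna1e were -0.793 in thinned CBP-ablated nuclei and 0.741 in p300-ablated nuclei with the lower limit at 3 UMIs, and that of Cacna2d3 was -0.847, all within 2 fold. These 2 were the channels past 2 fold among 31 ranked in CBP-ablated precursors, both lower. Of all ranked genes 1.88% were lower and 0.795% higher in that comparison. Cacna1e was the only one among 33 in p300-ablated precursors, where 0.479% of all ranked genes were higher and 0.378% lower. Kcnd2, an A-type potassium channel and the most abundant of the list, stood at 5607, 5504 and 4949 CPM.

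Of 41 ranked adhesion and synapse organizing genes, 3 fell and 0 rose in CBP-ablated precursors, with a median log2 ratio of -0.241, against 1.88% lower, 0.795% higher and a median of 0.122 over all ranked genes. In p300-ablated precursors 0 of 46 passed 2 fold, where 0.479% of all ranked genes were higher and 0.378% lower, and the median was 0.0251. Unc13c, a synaptic vesicle priming protein on chromosome 9 (73479422 to 73968966, minus strand), had 131 UMIs in control, 7 in CBP-ablated and 222 in p300-ablated precursors, or 52.8, 6.45 and 47.1 CPM. The CBP-ablated level was the only low one, at a log2 ratio of -3.03 (-4.38 to -1.95) against -0.17 for p300-ablated precursors. Nrxn3, a neurexin that joins synapses, stood at 2957, 1377 and 3115 CPM (log2 ratios -1.10 and 0.08), and Flrt2, a guidance and adhesion protein, at 51.2, 23.0 and 32.4 CPM. Both passed 2 fold by little, and their weakest CBP-ablated ratios under the alternatives were -0.866 and -0.567. Microglia held Flrt2 at 51.1, 15.0 and 211 CPM, level with the precursors in control and above them in the p300-ablated library. Lrrc4c, a synaptic adhesion protein, stood at 6133, 3468 and 5800 CPM, with a CBP-ablated log2 ratio of -0.82 that did not pass 2 fold. Lsamp, the most abundant gene of this list, stood at 14771, 11362 and 12383 CPM.

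In CBP-ablated precursors 3 of 24 ranked matrix and proteoglycan genes fell, Gpc5, Ndst3 and Reln. Of all ranked genes 1.88% fell, and the median log2 ratios were -0.177 for the list and 0.122 over all. In p300-ablated precursors 0 of 30 passed 2 fold, where 0.479% of all ranked genes were higher and 0.378% lower. Gpc5, a glypican on chromosome 14 (115092215 to 116525179, plus strand), stood at 1052 CPM (1012 to 1093) in control, 207 CPM (181 to 236) in CBP-ablated and 967 CPM (940 to 996) in p300-ablated precursors, with log2 ratios of -2.34 (-2.55 to -2.15) and -0.12. The gene is also an astrocyte marker, and its level in all other nuclei was 2621, 213 and 907 CPM. Microglia held it at 225, 120 and 80.4 CPM, below the members of each library. Ndst3, which adds sulfate to heparan chains, stood at 94.7, 26.7 and 173 CPM, the lowest in the CBP-ablated library and the highest in the p300-ablated library. Microglia held Ndst3 at 10.2, 210 and 30.15 CPM, above the precursors in the CBP-ablated library, on 14 UMIs there. Tnr, the most abundant matrix gene and a component of perineuronal nets, stood at 6865, 5629 and 7668 CPM.

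Among receptors for growth factors and morphogens, 0 of 29 ranked genes passed 2 fold in CBP-ablated precursors, near the 0.795% higher and 1.88% lower of all ranked genes. In p300-ablated precursors Egfr fell and Erbb3 rose, of 36 ranked, where 0.378% of all ranked genes were lower and 0.479% higher. Egfr, the epidermal growth factor receptor, stood at 154 CPM (139 to 170) in control, 132 CPM (111 to 155) in CBP-ablated and 61.3 CPM (54.4 to 68.8) in p300-ablated precursors. The p300-ablated level was low and the other 2 intervals overlapped, with log2 ratios of -0.23 and -1.33 (-1.55 to -1.11). In all other nuclei Egfr was lower in both ablated libraries, at 412, 87.7 and 130 CPM. Erbb3, a neuregulin receptor, had 22, 9 and 93 UMIs, or 8.87, 8.29 and 19.7 CPM, and its p300-ablated log2 ratio of 1.15 was 0.966 with the lower limit at 6 UMIs. Erbb4, the most abundant receptor of the list, stood at 5614, 5448 and 4132 CPM. Alk, a receptor tyrosine kinase named by its low CBP-ablated ratio, stood at 204, 64.5 and 341 CPM, with log2 ratios of -1.66 (-2.04 to -1.30) and 0.74 (0.60 to 0.89).

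On the list of lineage transcription factors, 4 of 29 ranked genes passed 2 fold in CBP-ablated precursors, where 0.795% of all ranked genes were higher and 1.88% lower, and 0 of 33 in p300-ablated precursors, where the shares were 0.479% and 0.378%. The transcription factor St18 and the listed ubiquitin ligase Rnf220 were higher, and the transcription factors Etv4 and Myt1l lower. Etv4, a factor of the PEA3 family downstream of growth factor signalling, stood at 66.9, 25.8 and 74.8 CPM (log2 ratios -1.38 and 0.16). Myt1l, a neuronal relative of Myt1, stood at 104, 42.4 and 102 CPM (-1.29 and -0.02). Both were low in the CBP-ablated library only, though Myt1l was within 2 fold, at -0.793, without nuclei holding a UMI of Mbp, St18 or Slc24a2. Sox6, which holds precursors back from differentiation, stood at 3940, 5031 and 3732 CPM, and Tcf7l2, which acts at the start of differentiation, at 215, 367 and 189 CPM, both within 2 fold. Microglia held Tcf7l2 at 797, 721.5 and 312 CPM, above the precursors of each library.

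Of differentiation and myelin genes, 5 of 20 ranked rose in CBP-ablated precursors, against 0.795% of all ranked genes, and 0 fell, with a median log2 ratio of 0.382, or 0.259 centred on the median gene. In p300-ablated precursors 0 of 26 passed 2 fold, where 0.479% of all ranked genes were higher and 0.378% lower, with a median of 0.0817. The limit on Mog, Mag, Mobp and Ermn acted on this axis, so the list is not independent of the choice of members. Mbp, Slc24a2 and St18 had 59, 51 and 53 UMIs in control and 128, 114 and 93 in CBP-ablated precursors. They and Rnf220 reached the 100 UMIs of the ranking mainly through the library where they were high. The CBP-ablated count of 5 was thus partly set by that limit. Mbp, myelin basic protein, stood at 23.8 CPM in control, 118 CPM in CBP-ablated and 33.7 CPM in p300-ablated precursors, and the sodium, calcium and potassium exchanger Slc24a2 at 20.6, 105 and 36.9 CPM. Microglia of the same libraries held Mbp at 204, 240.5 and 141 CPM and Slc24a2 at 20.4, 120 and 30.2 CPM. The CBP-ablated levels in precursors did not exceed those of microglia, so at this depth they were not above the level of a cell type outside the lineage. With 10% free RNA subtracted, Mbp, Slc24a2, Rnf220 and St18 were at or under 3 UMIs in both libraries, so no ratio could be given. The part of free RNA in the higher levels was otherwise not tested. Rnf220 stood at 71.8 CPM in CBP-ablated precursors and 75.2 CPM in CBP-ablated microglia. St18 and Frmd4b, the other 2 that rose, were at 85.6 and 100 CPM in CBP-ablated precursors. Microglia held St18 at 1180, 1503 and 1508 CPM, above all other nuclei (420, 1143 and 495 CPM), and Frmd4b at 1119, 992 and 623 CPM, so for these 2 genes microglia are no measure of free RNA.

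**Figure D4:**
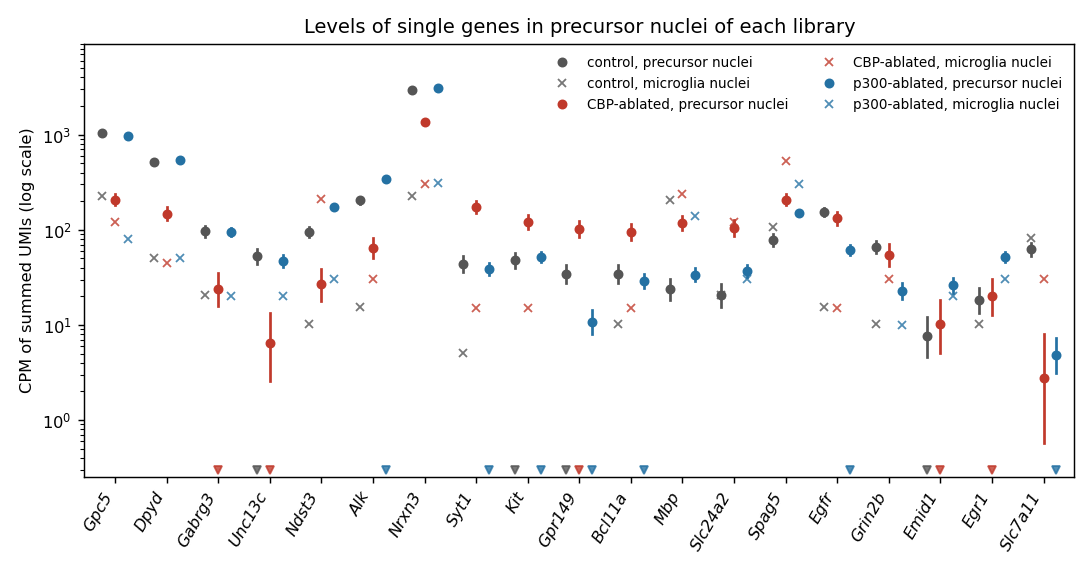
Levels in CPM (log axis) of named genes in precursor nuclei of the control, CBP-ablated and p300-ablated libraries, with 95% Poisson intervals. Crosses give microglia of the same library, and triangles at the lower edge mark microglia with 0 UMIs. Gpc5 and Gabrg3 are low in the CBP-ablated library, Egfr and Grin2b are low in the p300-ablated library, and Mbp lies under the microglia in each library.

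Each gene past 2 fold was set beside the microglia of the library where it was higher. Of the 92 genes lower in CBP-ablated precursors, 75 stood above the microglia in the control library, 57 of them above the upper bound of the microglia interval. Of the 39 higher, 19 stood above the microglia in the CBP-ablated library, 7 of them above the upper bound. In p300-ablated precursors 22 of the 33 higher genes stood above the microglia, 3 of them above the upper bound, and 15 of the 26 lower genes did so in control, 6 of them above the upper bound. There were 106, 36 and 33 microglia, with 195698, 66528 and 99490 UMIs. Their intervals were wide and differed with depth, since 0 UMIs allow up to 18.9 CPM in control and 55.5 CPM in CBP-ablated microglia. Some of the genes not above the microglia, St18 and Frmd4b among them, are expressed in microglia, so these counts do not compare the directions on equal terms.

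Genes higher in CBP-ablated precursors and above the microglia included Syt1, Kit, Bcl11a and Gpr149. Syt1, a synaptic vesicle calcium sensor on chromosome 10 (108497650 to 109010982, minus strand), stood at 43.5 CPM (35.7 to 52.6) in control, 174 CPM (150 to 201) in CBP-ablated and 38.6 CPM (33.2 to 44.6) in p300-ablated precursors. Its CBP-ablated level was 4 fold that of control (log2 ratio interval 1.65 to 2.35), and microglia held it at 5.11, 15.0 and 0 CPM. Kit, a receptor tyrosine kinase, stood at 48, 121 and 51.9 CPM, and Bcl11a, a zinc finger transcription factor, at 34.3, 95.8 and 29.3 CPM, with a CBP-ablated log2 ratio of 1.48 that was 0.964 without nuclei holding a UMI of Mbp, St18 or Slc24a2. In these 3 genes the CBP-ablated library was high and the other 2 lay close to each other. Gpr149, an orphan receptor on chromosome 3 (62529077 to 62605140, minus strand), differed in both libraries, at 34.7 CPM (27.7 to 42.8), 103 CPM (84.9 to 124) and 10.8 CPM (8.05 to 14.2), with 0 UMIs in the microglia of each library. Its log2 ratios were 1.57 and -1.68 (-2.21 to -1.16), and the 3 intervals of its level did not overlap.

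Nuclei with several UMIs of Gpr149, Ets1, Kit and Etv1 were more frequent among CBP-ablated precursors. At least 3 UMIs of the 4 genes together were found in 116 of 726 control members (16.0%, 13.4 to 18.8), 107 of 307 CBP-ablated members (34.9%, 29.5 to 40.5) and 162 of 1188 p300-ablated members (13.6%, 11.7 to 15.7). The CBP-ablated interval lay above the other 2. In all other nuclei the share was 5.53%, 8.52% and 7.25%. Lhfpl3 in these members was 13460, 13560 and 14570 CPM, close to 13850, 14290 and 15100 CPM in the rest. These 4 genes were taken up after their values had been seen. Without such nuclei, 60 of 4091 ranked genes (1.47%) were at least 2 fold lower in CBP-ablated precursors. The log2 ratio of Kit was then 0.50, but Kit is among the genes that chose these nuclei.

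Several astrocyte markers were lower in the ablated libraries. In CBP-ablated precursors 5 of 8 ranked genes fell and the median log2 ratio was -1.10, against 2 of 10 and -0.280 in p300-ablated precursors. Of all ranked genes 1.88% and 0.378% fell in the 2 comparisons. Slc7a11, the cystine and glutamate exchanger, stood at 62.5 CPM in control, 2.76 CPM in CBP-ablated and 4.88 CPM in p300-ablated precursors, with 155, 3 and 23 UMIs. In all other nuclei it stood at 370, 9.17 and 12.1 CPM, and control microglia held it at 81.8 CPM (46.7 to 132.8, 16 UMIs), not below the control precursors. Its log2 ratios of -4.50 and -3.68 stayed past 2 fold in every alternative, at -3.45 and -2.97 where weakest, with 10% free RNA subtracted. Apoe, the lipid carrier of astrocytes, stood at 132, 58.9 and 40.1 CPM in precursors and at 649, 496 and 161 CPM in microglia, which also express it. Its CBP-ablated log2 ratio of -1.16 was -0.747 without nuclei holding a UMI of Mbp, St18 or Slc24a2. Sparcl1, a secreted astrocyte protein, stood at 39.1, 6.45 and 5.72 CPM, against 35.8 CPM in control microglia. The glutamate transporter Slc1a2 stood at 127, 36.8 and 137 CPM, above 25.6 CPM in control microglia, with log2 ratios of -1.79 and 0.11. The part of astrocyte RNA in the lower genes of the CBP-ablated comparison was not tested.

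Among the genes lower in p300-ablated precursors, Fth1, the ferritin heavy chain, stood at 37.5 CPM in control, 21.2 CPM in CBP-ablated and 11.4 CPM in p300-ablated precursors (log2 ratios -0.82 and -1.71). In the other nuclei it stood at 72.2, 32.4 and 24.3 CPM, so the order of the libraries was the same outside the precursors.

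Genes higher in p300-ablated precursors included the immediate early genes Egr1 and Fos, 2 of 5 ranked on that list, against 0.479% of all ranked genes, and 0 fell. Egr1 had 45, 22 and 245 UMIs, or 18.1 CPM (13.2 to 24.3), 20.3 CPM (12.7 to 30.7) and 51.9 CPM (45.6 to 58.9), and Fos 43, 13 and 174 UMIs, or 17.3, 12 and 36.9 CPM. The p300-ablated library was high and the intervals of the other 2 overlapped, with log2 ratios to control of 1.52 (1.05 to 2.01) for Egr1 and 1.09 (0.60 to 1.61) for Fos, which was 0.918 with the lower limit at 3 UMIs. In the other nuclei the p300-ablated library was also the highest, at 17.8, 12.3 and 47.0 CPM for Egr1 and 25.3, 17.5 and 64.6 CPM for Fos. Jun, a partner of Fos in the AP-1 factor, stood at 49.2, 56.2 and 65.5 CPM, within 2 fold. Microglia held Fos at 5.11, 45.1 and 110.6 CPM, above the precursors in the p300-ablated library, so that level of Fos was not above that of another cell type.

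The Fos promoter is shown because this gene is known for a cAMP-responsive element, the site of CREB, a transcription factor that recruits CBP and p300. The window from 250 bases before to 50 bases after the start is chr12:85473640-85473939 on the plus strand of GRCm38.p6, from RefSeq, with the motif TGACGT in capitals.
Fos: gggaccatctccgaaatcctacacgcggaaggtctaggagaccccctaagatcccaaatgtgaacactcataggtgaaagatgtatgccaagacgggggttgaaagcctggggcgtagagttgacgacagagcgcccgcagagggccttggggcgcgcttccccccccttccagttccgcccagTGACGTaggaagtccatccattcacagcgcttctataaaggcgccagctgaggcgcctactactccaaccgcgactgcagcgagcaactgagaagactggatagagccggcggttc
The motif, read as TGACGT or its complement ACGTCA, stood once, 66 bases before the start. It was found in 2468 of 32851 windows of this kind (7.51%). Of the 33 genes higher in p300-ablated precursors 24 matched a window, and 4 held the motif, Arfgef3, Erf, Fos and Plcxd3. A match describes the letters of the window and is no evidence of binding.

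Other genes higher in p300-ablated precursors ranged widely in level. Sumf2, a sulfatase modifying factor, stood at 100 CPM in control, 184 CPM in CBP-ablated and 235 CPM in p300-ablated precursors. Its log2 ratios were 0.88 and 1.23 (1.03 to 1.43). Microglia of the p300-ablated library held it at 311.6 CPM, so that level was not above that of another cell type. Emid1, which encodes an extracellular matrix protein, had 19, 11 and 123 UMIs, or 7.66, 10.1 and 26.1 CPM, with log2 ratios of 0.40 and 1.77 (1.06 to 2.55). Bmp6, a bone morphogenetic protein, stood at 8.06, 23.9 and 29.0 CPM, and the organic anion transporter Slco1a4 at 6.05, 19.3 and 31.2 CPM. Both were higher in each ablated library than in control, but lay under the 100 UMIs of the ranking in the CBP-ablated comparison. Microglia held Slco1a4 at 20.4, 90.2 and 20.1 CPM, above the precursors in the control and CBP-ablated libraries. Shroom3, an actin-binding protein of radial glia, stood at 62.1, 156 and 147 CPM in precursors and at 534, 806 and 1000 CPM in the other nuclei. Its log2 ratios were 1.33 and 1.25, but 0.299 for CBP-ablated precursors among nuclei of 3000 to 6000 UMIs and 0.635 for p300-ablated precursors without doublets, both within 2 fold. Microglia held it at 118, 361 and 70.4 CPM, above the precursors in the control and CBP-ablated libraries and below them in the p300-ablated library.

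Set directly against each other, the ablated libraries differed in more genes, with 75 of 6279 ranked genes (1.19%) higher and 183 (2.91%) lower in CBP-ablated than in p300-ablated precursors. This comparison does not use the control library. Alk was among the lower, with a log2 ratio, CBP-ablated to p300-ablated, of -2.40 (-2.77 to -2.06), as was Gpc5 at -2.22 (-2.42 to -2.03). Gpr149 was among the higher at 3.25 (2.76 to 3.76), as was Tle4, a Groucho corepressor, at 1.52 (1.35 to 1.70). In all other nuclei the ratio of Gpc5 was nearly as low, at -2.09, while that of Tle4 was 0.57. Tle4 stood at 207, 411 and 143 CPM in control, CBP-ablated and p300-ablated precursors. Microglia held it at 301.5, 346 and 442 CPM, above the precursors in the control and p300-ablated libraries.

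Within the precursors, principal components of 2130 nuclei thinned to 2000 UMIs, over 1000 variable genes, separated the libraries only in part. Component 1 (1.87% of the variance) ran from Opcml, Csmd1, Dscam, Lhfpl3 and Tnr at one end to the radial glia genes Prdm16, Shroom3 and Glis3 at the other, with median scores of 1.43 in control, -2.16 in CBP-ablated and 1.55 in p300-ablated nuclei. Opcml stood at 8597, 6149 and 8722 CPM and Csmd1 at 4696, 2873 and 5289 CPM. These, Dscam and Tnr were lowest in the CBP-ablated library, and Lhfpl3 was not. At the other end Prdm16 stood at 30.2, 28.55 and 24.6 CPM and Glis3 at 166, 203.5 and 180 CPM. Shroom3 stood at 62.1, 156 and 147 CPM, higher in both ablated libraries than in control. Component 2 (1.3%) ran from Nrxn3, Gpc5, Lrrc4c and Dpyd to Plppr1, Sox6, Maml2 and Tle4, with median scores of -0.301, -4.53 and 1.28. Scores on component 2 correlated with the UMIs of the nucleus (Pearson r of 0.36), and precursors were deepest in the p300-ablated library. The part of depth in these medians was not tested. The distributions overlapped on both components. Plppr1, a phospholipid phosphatase relative of growing neurites, stood at 1130, 1704 and 786 CPM, and the Notch coactivator Maml2 at 2850, 4704 and 2482 CPM.

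**Figure D5:**
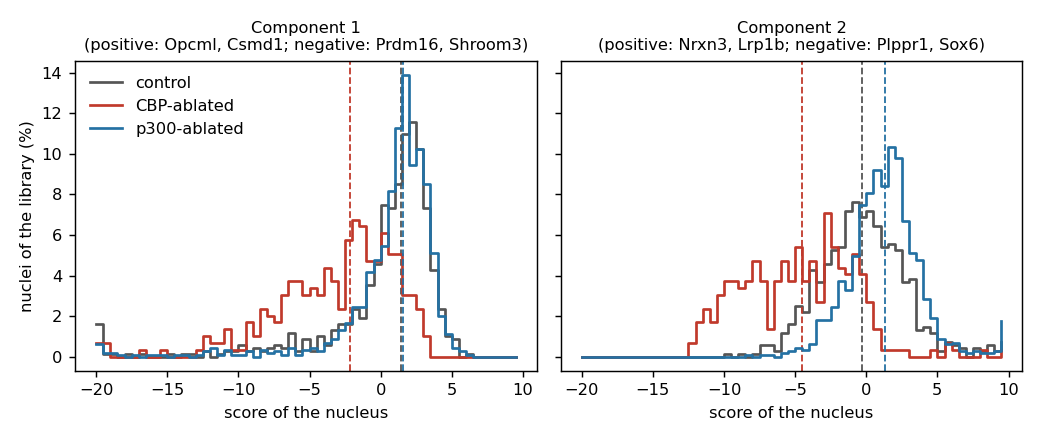
Distribution of the scores of precursor nuclei on principal components 1 and 2 in the control, CBP-ablated and p300-ablated libraries (share of nuclei per bin, with scores beyond -20 and 10 gathered in the end bins and dashed lines at the medians). The 3 distributions overlap, and the CBP-ablated medians of -2.16 and -4.53 are the lowest of each component.

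A small part of the members also held radial glia genes. At least 4 UMIs of Shroom3, Glis3, Prdm16 and Lrp2 were found in 38 control members (5.23%), 17 CBP-ablated members (5.54%) and 61 p300-ablated members (5.13%), nearly the same share, against 36.6%, 32.1% and 45.6% of the other nuclei. These members were deeper, with a median of 5244, 5561 and 5833 UMIs, and held less Lhfpl3, at 8054, 10400 and 9804 CPM against 14270, 14380 and 15470 CPM in the rest. Scrublet called 35 control members (4.82%), 6 CBP-ablated members (1.95%) and 56 p300-ablated members (4.71%) as doublets. They were kept, and the shares without doublets were 14.7%, 10.2% and 25.3%.

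The neighbours left out by a single limit showed where the members ended. The limit on Bcas1, Gpr17 and Enpp6 alone left out 71 control, 50 CBP-ablated and 115 p300-ablated nuclei, which held Tnr at 10400, 9475 and 11340 CPM, above the members of each library, and Gpc5 at 400, 50.2 and 243.5 CPM, below the members of each library. Syt1 in these nuclei stood at 48.8, 397 and 42.4 CPM and Tcf7l2 at 507, 1118 and 288 CPM. Both were highest in the CBP-ablated library, as in the members, where Tcf7l2 was within 2 fold. The limit on Kcnj6, Nell2, Fstl5 and Disp3 left out 181, 70 and 442 nuclei, with Gpc5 at 1954, 536 and 1785 CPM, again lowest in the CBP-ablated library. The limit on cell cycle genes left out 36, 40 and 63 nuclei.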

How the data were processed

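The authors deposited, for each library, a matrix of raw UMI counts, genes by nuclei. Per the labels and the study's methods, reads were aligned with Cell Ranger 3.1 to GRCm38 over exons and introns, and the submitters' processing notes also name FastQC 0.11.9 and Seurat 2.3.4. Every deposited nucleus was kept. Member nuclei and gene lists were chosen with earlier results of these data known. UMIs of the members were summed per library and scaled to 1000000. Genes were ranked with at least 100 UMIs in 2 libraries together, and no p-value was computed, since there was 1 library per condition. Named genes were the rule genes, the markers, the 15 highest and lowest ratios of each comparison, the most abundant and most changed members of each list and the leading genes of components. A few others, Sumf2 among them, were also named, and the ratio of Sumf2 was not followed through the alternatives. Microglia were nuclei with at least 6 UMIs of Fyb, Inpp5d, Fli1, Csf1r, Cx3cr1 and Ptprc and at most 1 precursor UMI. Symbols given to more than 1 gene were left out, and a few genes are not reported here. Python 3.11.15, numpy 2.4.6, scipy 1.17.1, pandas 2.3.3, scanpy 1.11.5 (Scrublet, 0.8% for each 1000 nuclei), R 4.3.3 and edgeR 4.0.16 (TMM factors) were used, and the scripts were tested on simulated data. Alternatives were other limits, depths, scalings, doublets, free RNA and low-count filters. Barcodes shared by 2 libraries numbered 3, 7 and 1, none of a member in both.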

Additional observations from a re-analysis of the deposited data

Results flagged for a closer look

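In 3 genes the 2 ablated libraries lay on opposite sides of the control, each past 2 fold, and these differences were not tested, with 1 library per condition. The log2 ratio of Cacna1e was -1.2 in CBP-ablated and 1.01 in p300-ablated precursors, that of Gpr149 was 1.57 and -1.68, and that of 9630013A20Rik was 1.16 and -1.08. For 9630013A20Rik the levels were 48.8, 109 and 23.1 CPM in control, CBP-ablated and p300-ablated precursors. Microglia held 9630013A20Rik at 51.1, 105.2 and 30.15 CPM, in the same order. Its control and p300-ablated levels were thus not above those of another cell type, and its CBP-ablated level was only slightly above. The share of precursor nuclei also differed from control in opposite directions, by -4.69 percentage points in the CBP-ablated and 10.7 points in the p300-ablated library. Both ratios of Cacna1e came within 2 fold under some alternatives, at -0.793 and 0.741 where weakest, as did those of 9630013A20Rik, at 0.978 and -0.982, and the CBP-ablated ratio of Gpr149 reversed, at -0.118, without nuclei chosen in part by that gene.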

How the results depend on the processing

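No paired analysis was possible because each condition had 1 library. The CBP-ablated share difference was -1.15 points at 6 UMIs, -1.01 without limits on other types, -2.02 with fewer than 3 myelin UMIs (chosen after seeing the data) and -7.2 among nuclei with fewer than 2 UMIs of Slc7a11. The p300-ablated difference was 20.3 points without limits on other types and 8.28 among nuclei with fewer than 2 UMIs of Slc7a11. The 39 genes higher in CBP-ablated precursors became 64 without limits on other types, 17 in thinned nuclei, 20 with TMM factors, 115 with at least 20 UMIs in each library and 285 with 20 in both together. The 92 lower became 72 with at least 20 UMIs in each library, which turned the excess of lower over higher genes around, 146 with TMM factors, 382 with 20 UMIs in both together and 60 without nuclei holding Gpr149, Ets1, Kit and Etv1 (chosen after seeing the data). The 33 higher in p300-ablated precursors became 16 thinned, 53 with free RNA subtracted, 215 with 20 UMIs in both together and 20 without nuclei holding radial glia genes (chosen after seeing the data). The 26 lower became 17 at 6 UMIs, 17 without doublets, 13 thinned, 13 in nuclei of 3000 to 6000 UMIs, 85 with 20 UMIs in each library and 251 with 20 in both together. Against control, 52 of 54 named genes past 2 fold in CBP-ablated and 36 of 37 in p300-ablated precursors kept their direction in every alternative that gave a value. Of these genes, 22 and 17 had a value past 2 fold in all 15 alternatives. In CBP-ablated precursors 4 of the 54 had no value with free RNA subtracted. They are not among the 22, though they stayed past 2 fold in every alternative that gave them a value. Of these, Mbp, St18 and Slc24a2 also had none without the nuclei holding their UMIs. Gpr149 turned to -0.118 in CBP-ablated precursors without the nuclei chosen by it, A2m to 0.42 and, in p300-ablated precursors, Cemip to -0.109 without doublets. Depth limits genes under 100 UMIs, and microglia levels rest on 33 to 106 nuclei.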

Other observations

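Among genes of histone acetylation, 0 of 25 ranked acetyltransferase, deacetylase and bromodomain genes rose in CBP-ablated precursors and Hdac9 fell, near the 0.795% and 1.88% of all ranked genes, with a median log2 ratio of 0.142, and 0 of 30 passed 2 fold in p300-ablated precursors. Hdac9 stood at 229 CPM in control, 114 CPM in CBP-ablated and 212 CPM in p300-ablated precursors, and its log2 ratio to control in CBP-ablated precursors was within 2 fold, at -0.584, in thinned nuclei. Microglia, which express it, held it at 1978, 1834 and 1518 CPM. Of cell cycle genes outside the rule, 0 of 6 ranked passed 2 fold in CBP-ablated and 0 of 12 in p300-ablated precursors. Of all ranked genes 0.795% were higher and 1.88% lower in CBP-ablated precursors, and 0.479% and 0.378% in p300-ablated precursors. Neither this list nor that of histone acetylation is set apart by its counts. Gm16867, a predicted gene, had 51 UMIs in control, 0 in CBP-ablated and 159 in p300-ablated precursors. These gave 20.6 CPM, none above the floor of 2.76 CPM that 3 UMIs give, and 33.7 CPM. Microglia held it at 25.55, 0 and 100.5 CPM, above the precursors in the control and p300-ablated libraries.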
